A study of Rattus norvegicus with 6 samples.

Results

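The genes described here encode the subunits of oxidative phosphorylation, the respiratory chain and ATP synthase of the inner mitochondrial membrane. They were taken by symbol, as every named gene beginning with Nduf, Uqcr, Atp5 or Cox4 to Cox8, together with the succinate dehydrogenase genes, Cyc1 and Cycs, with 1 probe for each gene. This gave 54 genes, read by 55 probes, of the 9627 genes that could be named on the array. They comprised 14 genes of complex I, 3 assembly factors of complex I, 3 genes of complex II, 5 of complex III, cytochrome c, 13 of complex IV and 15 of complex V. The choice of genes used symbols and no expression value, though it was made with earlier results of these data known. For a gene with several probes, that with the highest mean intensity was taken. Genes of the same families outside these 54, and those encoded by mitochondrial DNA, were not analysed here.

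Liver RNA came from male Sprague Dawley rats, all kept on a high-fat diet of 60% fat. The dark tea group (3 arrays) was given, into the stomach, tea made by fermentation with Eurotium cristatum (a fungus, strain 8730) for 9 weeks. The control group (3 arrays) received distilled water by the same route. The age of the rats is not given in the labels. Nothing in them says that each replicate was its own animal, so the error behind each p-value is that among these samples and may be technical.

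Oxidative phosphorylation passes electrons from NADH through complex I, or from succinate through complex II, to ubiquinone, then through complex III and cytochrome c to complex IV, where oxygen is reduced. Complexes I, III and IV pump protons out of the matrix, and complex V, the ATP synthase, makes ATP as the protons return. Liver depends on this system for the ATP that gluconeogenesis and urea synthesis consume and for the disposal of electrons from fatty acid oxidation. Most subunits are nuclear genes, and factors such as NRF1, GABP and the coactivator Ppargc1a are known to act on many of them.

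Values are log2 of the deposited intensity, 1 colour per array. Median intensity per array lay between 87.1 and 95.9, and having 3 arrays a group is what limits precision. Control replicate 1 stood apart over the whole table, with a Pearson correlation over probes of 0.884 to 0.899 with each other array, against 0.945 to 0.972 among the remaining 5. Its 90th percentile of intensity was 902, the lowest of the 6, against 1010 to 1183 in the others, and over the bright genes defined below its median difference from the mean of the other 5 was -0.26. The 12 hepatocyte markers had mean levels between 12.78 and 15.60 on the log2 scale, and for them that median was 0.05, so they did not share the lower reading. The 54 genes had mean levels between 5.95 and 14.50 with a median of 10.38, and 52 of them lay above 6.47, the middle value of mean level over the whole table. Because most are bright, counts are set below against all named genes and against the 4872 named genes above that median, called bright genes. The median mean level of bright genes was 8.24, so they do not match the 54 in level. Levels of different probes are not compared with each other. For 27 of the 54 genes the reference lists at least 1 pseudogene, whose transcripts may share signal with the probe.

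No oxidative phosphorylation gene passed the correction over all probes. With limma, 0 of the 54 reached an adjusted p under 0.05, where 1 of 26419 probes did (0.00379%), and the smallest adjusted p among the 54 was 0.949. At an unadjusted p under 0.05, 2 of the 54 were lower with tea and 0 were higher. Over all named genes 2.48% were lower and 1.73% higher by that rule, and over bright genes 2.98% and 2.03%, so 2 of 54, or 3.70%, was near the background. By mean level 35 genes were lower and 19 higher with tea, with a median difference of -0.12 on the log2 scale, while 51.5% of all named genes and 47.6% of bright genes were lower, with medians of -0.014 and 0.023. Without control replicate 1, 39 were lower and 15 higher, with a median of -0.14, beside 60.7% lower and a median of -0.10 among bright genes. Without control replicate 3, 29 (53.7%) were lower and 25 higher, and the median was -0.044, beside 42.0% lower and a median of 0.096 among bright genes. RNA from whole tissue cannot tell fewer cells of a type from less RNA per cell.

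**Figure D1:**
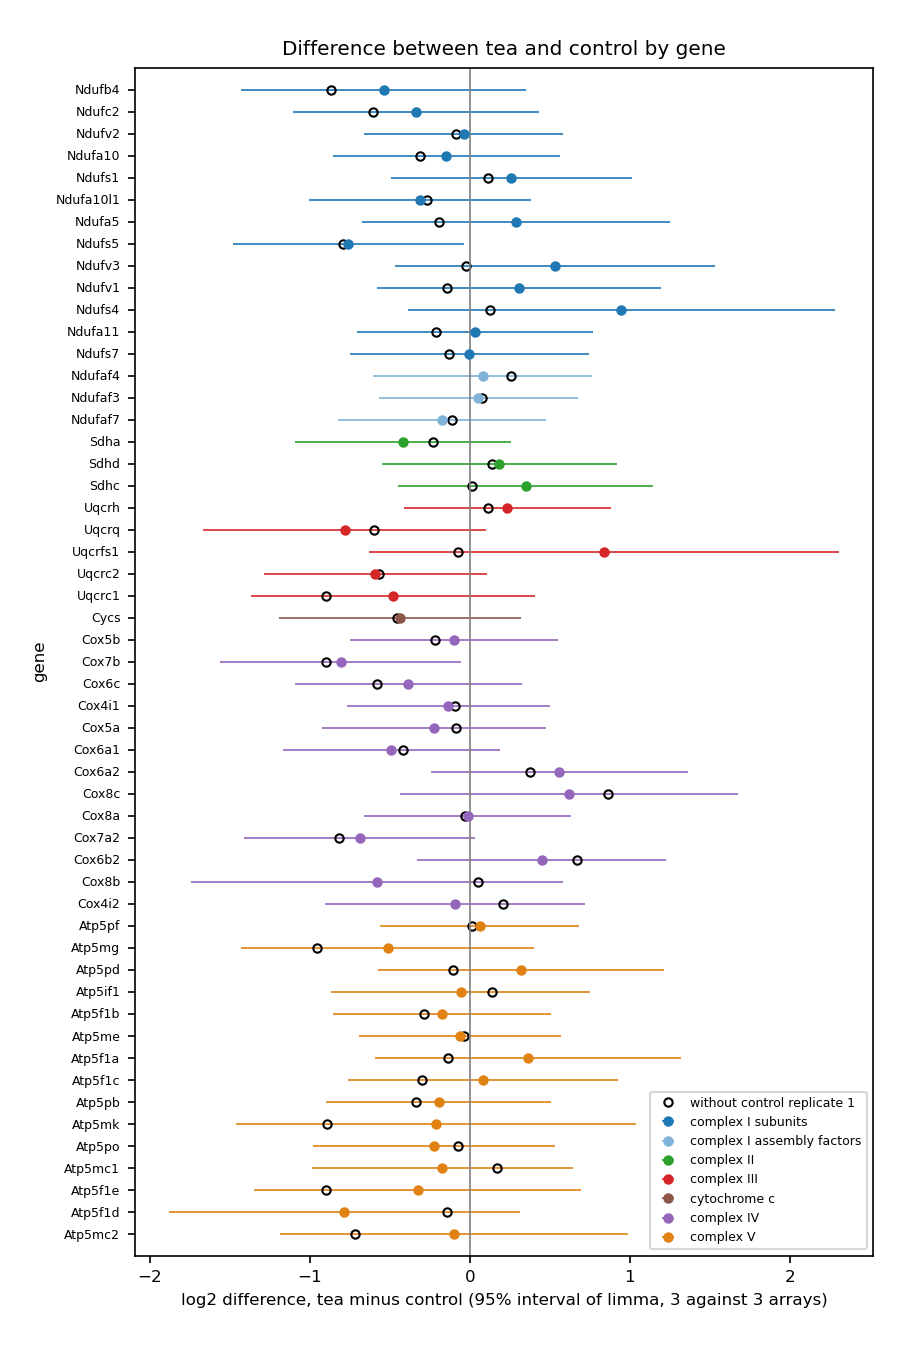
Each row is 1 gene, for 53 of the 54, and the horizontal axis is the log2 difference, tea minus control. Filled points with bars are limma's estimate and 95% confidence interval from 3 against 3 arrays, coloured by complex, and open circles are the estimate without control replicate 1. The intervals of 51 genes include 0, and those of Ndufs5 and Cox7b end just below it.

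In 5 genes all 3 tea arrays lay below all 3 controls, and in 0 genes did they lie above. Such separation downward was found in 6.11% of all named genes and 6.98% of bright genes, and upward in 4.39% and 4.31%, against 9.26% and 0 of the 54. Of the 69 cytosolic ribosome genes, also read by bright probes, 11.6% separated downward and 1.45% upward. Those 69 were taken by symbol, as Rpl or Rps followed by a digit, with Rplp0, Rplp1, Rplp2 and Rpsa. Whether each encodes a ribosomal protein was not checked. The 5 were Ndufs5 of complex I, Sdha of complex II, Uqcrc2 of complex III, and Cox7a2 and Cox7b of complex IV. With 3 against 3 arrays, groups that do not overlap always give a two-sided exact permutation p = 0.1, the smallest possible, so that test adds nothing for genes chosen in this way.

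Cox7b, a small nuclear-encoded subunit of cytochrome c oxidase, had log2 intensities of 13.12, 13.53 and 13.32 in tea replicates 1, 2 and 3 and of 13.95, 13.74 and 14.70 in the controls. Control replicate 3 was the highest array, and the nearest tea and control arrays were 13.53 and 13.74. The difference of -0.81 ± 0.34 (SE, 95% interval -1.56 to -0.06), or 1.75-fold lower with tea, had an unadjusted limma p of 0.0376 and an adjusted p of 0.949. It was -0.52 without control replicate 3.

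Ndufs5, an accessory subunit of complex I, had 10.26, 10.42 and 9.71 with tea and 10.82, 10.62 and 11.22 in the controls. Tea replicate 3 was the lowest array and control replicate 3 the highest. The difference was -0.76 ± 0.33 (SE, 95% interval -1.48 to -0.04), with an unadjusted limma p of 0.0415 and an adjusted p of 0.949. It ranged from -0.90 to -0.55 when 1 array was left out.

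Cox7a2, the form of subunit VIIa found in liver and most other tissues, had 7.27, 6.84 and 6.56 with tea and 7.32, 7.47 and 7.94 in the controls. The groups were parted by a gap between 7.27 and 7.32, and the difference was -0.69 ± 0.33 (SE). Uqcrc2, a core protein of complex III, had 9.11, 9.42 and 8.62 with tea and 9.68, 9.52 and 9.72 in the controls. Its controls lay close together, tea replicate 3 was the low array, and the difference was -0.59 ± 0.31 (SE). Sdha, the flavoprotein subunit of complex II that oxidises succinate, had 10.78, 10.57 and 10.55 with tea and 11.43, 10.80 and 10.93 in the controls. Here control replicate 1 was the high array, and the difference of -0.42 ± 0.30 (SE) became -0.23 without it. The adjusted p in limma was 0.949 for each of these 3 genes.

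**Figure D2:**
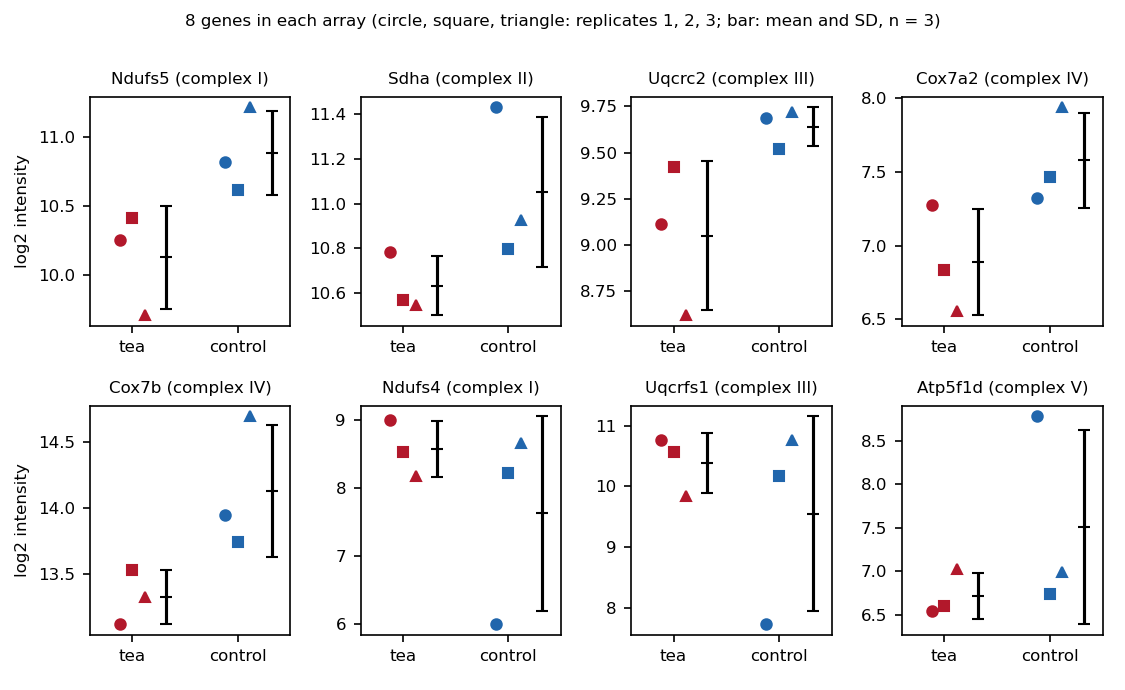
Each panel shows the log2 intensity of 1 gene in the 6 arrays, with tea in red and control in blue, symbols for the replicate number, and a bar for the mean and SD (n = 3). In Ndufs5, Sdha, Uqcrc2, Cox7a2 and Cox7b the groups do not overlap, while in Ndufs4, Uqcrfs1 and Atp5f1d control replicate 1 lies apart from the other 5 arrays. The vertical axes differ between panels and do not start at 0.

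The promoters of 3 of these 5 genes are shown because their groups separate in the same direction and their motif content differs. They stand for the range from 3 matches to none. Each sequence runs from 250 bases before to 50 bases after the annotated start, from RefSeq on GRCr8, 5′ to 3′ on the strand of the gene. Capitals mark matches to a form of the NRF1 site, which is GCGC, then A and any base, then GCGC.
Ndufs5: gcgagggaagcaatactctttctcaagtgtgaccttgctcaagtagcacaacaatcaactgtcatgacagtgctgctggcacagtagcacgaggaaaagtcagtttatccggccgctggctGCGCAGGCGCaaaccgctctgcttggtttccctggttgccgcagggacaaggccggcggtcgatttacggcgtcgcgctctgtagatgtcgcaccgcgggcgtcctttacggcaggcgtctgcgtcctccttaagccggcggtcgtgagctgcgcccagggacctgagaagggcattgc
Sdha: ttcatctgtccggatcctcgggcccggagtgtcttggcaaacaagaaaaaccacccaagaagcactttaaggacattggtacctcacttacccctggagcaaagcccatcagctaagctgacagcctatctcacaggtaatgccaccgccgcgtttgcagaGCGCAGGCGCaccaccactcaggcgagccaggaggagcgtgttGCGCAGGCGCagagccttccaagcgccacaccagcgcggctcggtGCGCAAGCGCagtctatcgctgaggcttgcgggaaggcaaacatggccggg
Cox7b: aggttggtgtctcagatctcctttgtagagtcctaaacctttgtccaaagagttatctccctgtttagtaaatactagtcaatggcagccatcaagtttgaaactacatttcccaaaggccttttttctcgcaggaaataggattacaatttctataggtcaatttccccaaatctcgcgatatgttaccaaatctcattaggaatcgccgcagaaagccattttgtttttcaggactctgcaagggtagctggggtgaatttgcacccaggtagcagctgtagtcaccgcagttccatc
The Ndufs5 window, chr5:141264353-141264652 on the minus strand, held 1 match. The Sdha window, chr1:30764303-30764602 on the plus strand, held 3, and the Cox7b window, chrX:75148786-75149085 on the plus strand, held none of the motifs searched. Those were the NRF1 form above, CCGGAAGT (a GABP site) and AANATGGCG (a YY1 site), on both strands and in the 300 bases of each window, and none of these overlapped another in the windows shown.

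A promoter was listed for 48 of the 54 genes. The NRF1 letters were found in 12 of the 48 (25.0%), against 6.62% of 7841 promoters of named genes and 4.25% of all 33469 promoters in the table. The GABP letters were in 6 (12.5%), against 5.46% and 3.81%, and the YY1 letters in 6 (12.5%), against 3.71% and 3.01%. At least 1 of the 3 was in 22 of the 48, or 45.8%, against 14.0% and 10.1%. Median GC content was 58.0% in the 48 and 56.7% in the named genes. Of the 12 genes with the NRF1 letters 7 had lower means with tea, and of the 36 without them 23 did, with median differences of -0.079 and -0.12. Without control replicate 1 these medians were -0.22 and -0.10, the reverse order. For the GABP letters the medians were 0.11 in the 6 genes with them and -0.14 in the 42 without, and -0.08 and -0.13 without control replicate 1. For the YY1 letters they were 0.03 and -0.12, and -0.06 and -0.14 without that array. None of these differences between promoter classes was tested.

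Complex I takes electrons from NADH. Of its 14 genes 8 were lower and 6 higher with tea, with a median difference of -0.02, and Ndufs5 was the 1 gene at an unadjusted p under 0.05. The mean level over the 14 was 10.42 ± 0.14 with tea and 10.42 ± 0.47 in the controls (SD, n = 3 each), with control replicates at 9.91, 10.54 and 10.83. The control arrays thus spread on both sides of the tea arrays, which lay between 10.26 and 10.53. Control replicate 1 was the lowest array in 7 of the 14 genes and control replicate 3 the highest in 10. With control replicate 1 left out, 12 of 14 were lower, with a median of -0.20, and Ndufb4 joined Ndufs5 at an unadjusted p under 0.05. Among bright genes 60.7% were lower in that fit, and 5.62% were lower at that p.

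Ndufs4, an accessory subunit whose loss causes a Leigh-like disease in humans and mice, had 9.00, 8.53 and 8.18 with tea and 5.99, 8.22 and 8.66 in the controls. Its difference of 0.95 ± 0.60 (SE) was the most positive of the 54 and became 0.13 without control replicate 1, where that array minus the mean of the other 5 was -2.53. Ndufv3, an accessory subunit of the NADH-oxidising module, had 9.64, 9.58 and 9.83 with tea and 8.04, 9.48 and 9.93 in the controls. The same array was low again, and the difference went from 0.53 to -0.02 without it.

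Ndufs1, Ndufs7, Ndufv1 and Ndufv2 are core genes, whose proteins carry the flavin or iron-sulphur centres. Their differences were 0.26, -0.0024, 0.31 and -0.038. Ndufv2 had one of the narrowest ranges, from 12.24 to 12.47 over the 6 arrays. Ndufs7 had 6.44, 6.62 and 7.27 with tea and 6.53, 7.13 and 6.69 in the controls, with overlapping groups. Ndufv1, which binds NADH, had 8.10 in control replicate 1 and 9.19 to 9.60 elsewhere, and its difference was -0.14 without that array.

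Among the other accessory subunits, Ndufb4 had 12.40, 12.32 and 12.16 with tea and 12.18, 12.59 and 13.73 in the controls. Control replicate 3 stood well above the rest, and the difference of -0.54 ± 0.40 (SE) was -0.09 without it. Ndufc2 had the same shape, since control replicate 3 read 13.15 and the rest spanned 12.03 to 12.52. Ndufa10 and the closely related Ndufa10l1, whose probes may share signal, differed by -0.15 and -0.31. Ndufa5 had 9.44 in control replicate 1 and 10.25 to 11.06 elsewhere, and its difference went from 0.29 to -0.19 without that array. Ndufa11 differed by 0.03, with every array between 6.45 and 7.47.

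The 3 assembly factors, which build complex I without remaining in it, varied little. Ndufaf3 had 8.07, 8.16 and 7.90 with tea and 8.04, 7.96 and 7.97 in the controls, a difference of 0.05 ± 0.28 (SE). A second Ndufaf3 probe, with a slightly lower mean level, differed by 0.29 ± 0.33. Ndufaf4, which acts with Ndufaf3 in early assembly, differed by 0.08, and Ndufaf7, a mitochondrial methyltransferase, by -0.17.

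**Figure D3:**
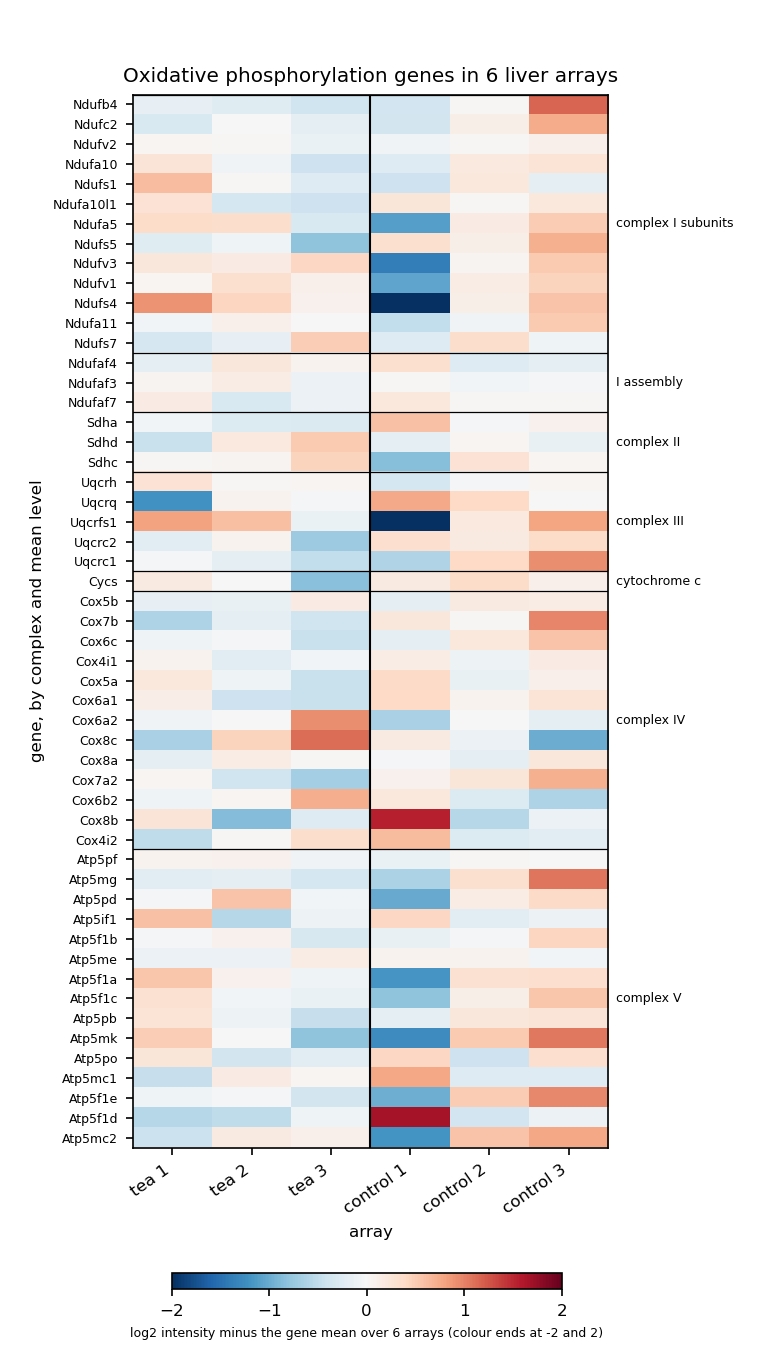
Rows are 53 of the 54 genes, grouped by complex and ordered by mean level within each group, and columns are the 6 arrays. Colour is log2 intensity minus the mean of that gene over the 6 arrays, red above and blue below, ending at -2 and 2. Control replicate 1 holds the deepest blue cells (Ndufs4, Uqcrfs1) and the deepest red cells (Atp5f1d, Cox8b), and control replicate 3 is red over much of complexes I and V.

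Complex II, succinate dehydrogenase, is the enzyme shared by the citric acid cycle and the respiratory chain. Its 3 measured genes did not move together: Sdha was lower as given above, and the membrane anchors Sdhc and Sdhd differed by 0.35 ± 0.36 and 0.19 ± 0.33 (SE). Sdhc had 7.09, 7.11 and 7.51 with tea and 6.22, 7.35 and 7.10 in the controls, with control replicate 1 the low array, and its difference was 0.013 without it. Sdhd had 8.06, 8.71 and 9.03 with tea and 8.33, 8.55 and 8.37 in the controls, so that the tea arrays lay on both sides of the controls. Control replicate 1 minus the mean of the other 5 arrays was 0.70 for Sdha and -1.02 for Sdhc.

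Complex III passes electrons from ubiquinol to cytochrome c. Of its 5 genes 3 were lower and 2 higher with tea, with a median of -0.48, or -0.57 without control replicate 1 and -0.14 without control replicate 3. Uqcrq, a small supernumerary subunit, had 10.20, 11.49 and 11.37 with tea and 12.18, 11.81 and 11.42 in the controls. Tea replicate 1 was the low array, the groups overlapped through tea replicate 2, and the difference of -0.78 ± 0.40 (SE, adjusted p = 0.949 in limma) was -0.37 without tea replicate 1. Uqcrc1, the other core protein, had 8.30, 8.14 and 7.84 with tea and 7.74, 8.73 and 9.27 in the controls. Control replicates 1 and 3 were the lowest and highest arrays, and the difference went from -0.48 to -0.90 without the first and to -0.14 without the second.

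Uqcrfs1 encodes the Rieske iron-sulphur protein, which carries electrons within complex III. It had 10.77, 10.57 and 9.84 with tea and 7.73, 10.17 and 10.76 in the controls. Control replicate 1 minus the mean of the other 5 arrays was -2.69, while those 5 spanned 0.94, and the difference of 0.84 ± 0.66 (SE) was -0.07 without it. Uqcrh, the hinge protein that helps cytochrome c bind, differed by 0.23 ± 0.29. Cycs, cytochrome c itself, had 11.24, 11.06 and 10.22 with tea and 11.24, 11.43 and 11.16 in the controls. Tea replicate 3 was the low array, and the difference of -0.44 ± 0.34 (SE) was -0.12 without it.

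Complex IV is cytochrome c oxidase, and several of its nuclear subunits exist as tissue isoforms. Of its 13 genes 10 were lower and 3 higher with tea, with a median of -0.13. All 8 genes of forms used in liver and most other tissues (Cox4i1, Cox5a, Cox5b, Cox6a1, Cox6c, Cox7a2, Cox7b and Cox8a) had lower means with tea, with a median of -0.30. The 5 genes of lung, muscle or testis forms had a median of 0.45, with 3 higher and 2 lower. The isoform classes are general knowledge, the split is given as a description, and the difference between the classes was not tested. All 8 stayed lower without control replicate 1, with a median of -0.32, and 7 of 8 without control replicate 3 or tea replicate 1, Cox8a being the exception in each case, as it was with array weights. Only Cox7b of the 8 had an unadjusted p under 0.05 with all arrays, and the groups did not overlap in Cox7a2 and Cox7b alone. The mean level over the 8 was 10.98, 10.88 and 10.77 in the tea arrays and 11.16, 11.09 and 11.45 in the controls. These did not overlap, the nearest being 10.98 and 11.09. The 8 genes were read in the same 6 arrays, so they are not independent, and this mean was not tested. Among bright genes 47.6% had lower means with tea, or 60.7% without control replicate 1.

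Among the 8, Cox6a1, the form of subunit VIa found in liver, had 9.75, 9.20 and 9.18 with tea and 10.01, 9.69 and 9.89 in the controls. Tea replicate 1 lay just above the lowest control, and the difference was -0.49 ± 0.31 (SE, adjusted p = 0.949 in limma). Cox6c differed by -0.38 ± 0.32 and Cox5a by -0.22 ± 0.32. Cox4i1, the general form of subunit IV, had 11.87, 11.57 and 11.74 with tea and 11.94, 11.69 and 11.95 in the controls. Its arrays overlapped, and the difference was -0.13 ± 0.29. Cox5b ranged from 14.31 to 14.68, and Cox8a, the general form of subunit VIII, had a difference of -0.013.

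The tissue isoforms had mean levels from 5.95 to 8.44. Cox6a2, the heart and muscle form of subunit VIa, had 8.36, 8.42 and 9.37 with tea and 7.79, 8.43 and 8.24 in the controls. Tea replicate 3 was the high array, and the difference of 0.56 ± 0.36 (SE) was 0.23 without it. Cox8c, a testis form, had 7.58, 8.67 and 9.34 with tea and 8.40, 8.11 and 7.22 in the controls, a difference of 0.62 ± 0.48 that was 0.21 without tea replicate 3. Cox6b2, also a testis form, had 6.45, 6.58 and 7.26 with tea and 6.76, 6.28 and 5.92 in the controls, a difference of 0.45 ± 0.35. In all 3 of these, tea replicate 3 was the highest of the 6 arrays.

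Cox8b, the heart and muscle form of subunit VIII, had 6.64, 5.53 and 6.14 with tea and 7.94, 5.82 and 6.28 in the controls. Control replicate 1 was high, and the difference of -0.58 ± 0.52 (SE) was 0.0495 without it. Cox4i2, the lung form of subunit IV, ranged from 5.44 to 6.58, where the random control probe lay between 5.05 and 5.40. With 7 of 10 markers of skeletal and cardiac muscle measured, their mean levels lay between 5.13 and 6.62, and their summed intensity was 338 to 464 in the tea arrays and 457 to 497 in the controls. Of the 7, 1 was higher and 6 lower with tea, and the part of muscle RNA in the isoform values was not tested.

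Complex V is the ATP synthase, with a catalytic head, a stalk and a proton-driven ring. Of its 15 genes 11 were lower and 4 higher with tea, with a median of -0.17, and 0 were at an unadjusted p under 0.05 in limma. Without control replicate 1, 12 were lower, and 4 of them, Atp5mg, Atp5f1e, Atp5mk and Atp5mc2, had an unadjusted p under 0.05. Among bright genes 60.7% were lower in that fit, and 5.62% were lower at that p. Without control replicate 3, 7 of the 15 were lower and 8 higher, with a median of 0.0033, beside 42.0% lower among bright genes. The mean level over the 15 was 10.55 ± 0.11 with tea and 10.68 ± 0.33 in the controls (SD, n = 3 each), with control replicates at 10.34, 10.72 and 10.99.

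Within the head, Atp5f1a and Atp5f1b, the alpha and beta subunits that form the catalytic sites, differed by 0.36 ± 0.43 and -0.17 ± 0.31 (SE). Atp5f1a had 11.80, 11.33 and 11.16 with tea and 10.07, 11.54 and 11.58 in the controls, so control replicate 1 alone lay below the tea arrays. Atp5f1c, the gamma subunit that turns within the head, had 10.26 in control replicate 1 and 10.92 to 11.62 elsewhere. Atp5f1d and Atp5f1e, the delta and epsilon subunits of the central stalk, stood in opposite directions in that array. Atp5f1d had 6.54, 6.60 and 7.02 with tea and 8.78, 6.73 and 6.99 in the controls, while Atp5f1e had 8.22, 8.28 and 7.95 with tea and 7.33, 8.82 and 9.27 in the controls. Without control replicate 1 the Atp5f1d difference went from -0.78 ± 0.49 to -0.14 ± 0.32, and that of Atp5f1e from -0.32 ± 0.46 to -0.89 ± 0.32.

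Atp5mc1 and Atp5mc2 encode the same mature subunit of the proton ring. Atp5mc1 had 7.94, 8.56 and 8.44 with tea and 9.17, 8.15 and 8.14 in the controls, and Atp5mc2 had 6.66, 7.26 and 7.20 with tea and 5.90, 7.65 and 7.86 in the controls. Control replicate 1 was the highest array for the first and the lowest for the second. Without it the differences were 0.17 ± 0.32 and -0.72 ± 0.32 (SE), against -0.17 and -0.10 with all arrays.

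Of the membrane and stalk subunits, Atp5mg, subunit g, had 13.27, 13.31 and 13.14 with tea and 12.87, 13.82 and 14.57 in the controls. The tea arrays lay close together between control replicate 1 and the other controls, and the difference was -0.51 ± 0.41 (SE) with all arrays and -0.96 ± 0.33 without control replicate 1. Atp5mk, a small subunit tied to synthase dimers, had 9.00, 8.50 and 7.70 with tea and 7.25, 9.03 and 9.56 in the controls, and differed by -0.21 ± 0.56. Atp5po and Atp5pb, of the outer stalk, differed by -0.22 ± 0.34 and -0.19 ± 0.32. Atp5pd, another outer stalk subunit, differed by 0.32 ± 0.40, or -0.10 without control replicate 1. Atp5pf, coupling factor 6 of the outer stalk, spanned 14.00 to 14.21 over the 6 arrays, the narrowest range of the 54, and Atp5me, subunit e, spanned 12.24 to 12.51. Atp5if1, the inhibitor that stops the synthase from consuming ATP, had 13.44, 12.30 and 12.76 with tea and 13.28, 12.64 and 12.74 in the controls. Its groups overlapped, and the difference was -0.06 ± 0.37 (SE, adjusted p = 0.990 in limma).

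Control replicate 1 was the lowest array in 21 of the 54 (38.9%) and the highest in 11 (20.4%), and among bright genes it was lowest in 39.8% and highest in 17.8%. The share of the 54 was thus near that of bright genes. Control replicate 3 was the highest array in 23 of the 54 (42.6%), and the lowest in 2, Cox8c and Cox6b2. It was highest in 26.2% of bright genes and 18.8% of all named genes. Of the 69 cytosolic ribosome genes, with a median mean level of 10.86, it was highest in 37 (53.6%). Tea replicate 3 was the lowest in 16 (29.6%), beside 23.4% of bright genes. The median deviation of the 54 from their own means was 0.22 in control replicate 3 and 0.07 in control replicate 2, against -0.14 in control replicate 1 and between -0.12 and 0.0028 in the tea arrays. The control range was wider than the tea range in 33 of 54 (61.1%), and in 61.8% of bright genes.

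Leaving out control replicate 1 left 0 of the 54 past the correction (limma, smallest adjusted p = 0.816), where 6 probes of 26419 passed (0.0227%). At an unadjusted p under 0.05, 9 were then lower, or 16.7%, beside 3.81% of all named genes and 5.62% of bright genes, and 0 were higher, beside 2.04% and 1.89%. The 9 were Atp5mg, Atp5f1e, Uqcrc1, Cox7b, Cox7a2, Ndufb4, Atp5mk, Ndufs5 and Atp5mc2, with differences from -0.96 to -0.72. In each of the 9, control replicate 3 was the highest of the 6 arrays. Without control replicate 3 instead, 0 were lower by this rule and Ndufs4 and Uqcrfs1 were higher, by 1.47 and 1.44, the genes with the lowest readings relative to the other arrays in control replicate 1. The share of bright genes by this rule is not given for that fit, in which 42.0% of bright genes had lower means with tea.

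**Figure D4:**
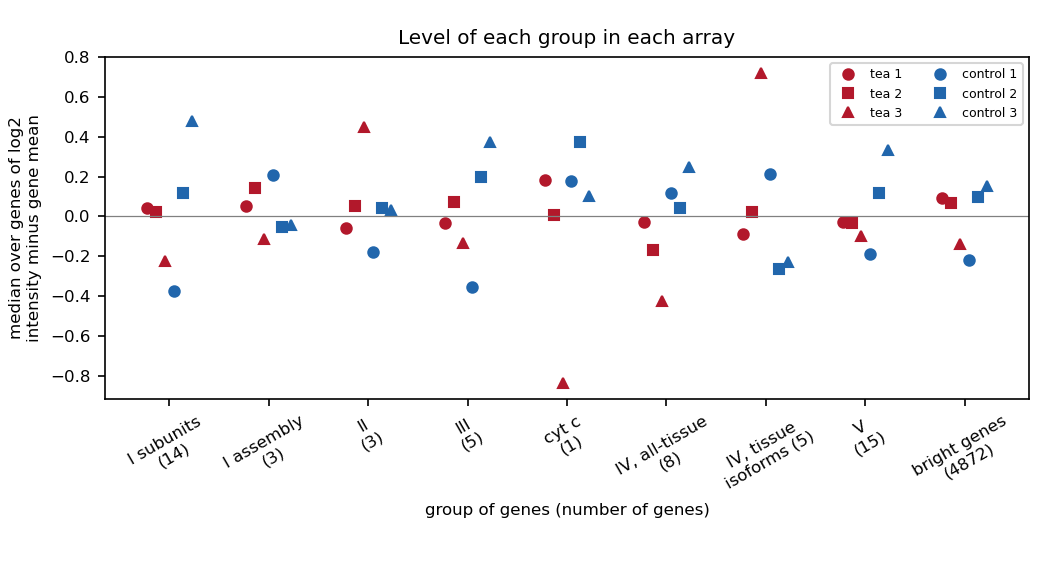
For each group of genes, points give the median over its genes of log2 intensity minus the gene mean, 1 point for each array, with tea in red, control in blue and symbols for the replicate number. In complexes I, III and V control replicates 1 and 3 lie at the 2 ends, at -0.38 and 0.48 for the 14 complex I genes. The 8 complex IV genes used in most tissues have all 3 controls above 0 and all 3 tea arrays below it, and the 5 tissue isoforms have tea replicate 3 at 0.72.

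Genes around the respiratory chain were read from lists chosen by function, and in limma 0 of their members passed over all probes. Of 24 regulators of mitochondrial gene expression 15 were measured, 9 higher and 6 lower with tea, with a median of 0.12, and 1 was at an unadjusted p under 0.05. That was Esrra, a nuclear receptor that acts with Ppargc1a, with 7.27, 7.99 and 8.47 with tea and 6.48, 7.21 and 7.23 in the controls. Its groups did not overlap, and the difference was 0.94 ± 0.38 (SE, adjusted p = 0.949 in limma). That difference was 0.69 without control replicate 1, the lowest array. Over all named genes 1.73% were higher at an unadjusted p under 0.05 and 4.39% separated upward, and over bright genes 2.03% and 4.31%. With 15 genes in the list, 1 such gene was not tested against these shares. Ppargc1a, the coactivator of mitochondrial biogenesis and of gluconeogenic genes in fasted liver, had 9.49, 8.14 and 8.67 with tea and 8.39, 7.95 and 7.66 in the controls. The difference of 0.77 ± 0.39 (SE, adjusted p = 0.949 in limma) was 0.40 without tea replicate 1, the high array. These 2 were named because they had the smallest p of the 15. Without control replicate 1, 8 of the 15 were higher and 7 lower, with a median of 0.0023.

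Of 44 assembly factors outside the rule 10 were measured, with 7 higher and 3 lower and a median of 0.05, and with 2 higher and 8 lower without control replicate 1. Tmem126a, an assembly factor of complex I, differed by 1.22 ± 0.50 (SE), or 0.68 without control replicate 1, where it read 4.75, below the random control probe. Coa8, tied to complex IV assembly, differed by -0.42 ± 0.30. The citric acid cycle and pyruvate dehydrogenase list had 7 of 15 higher and 8 lower, with a median of -0.04. Dlat, the acetyltransferase of pyruvate dehydrogenase, had 7.45, 7.16 and 7.18 with tea and 5.87, 6.60 and 6.50 in the controls. Its groups did not overlap, and the difference was 0.94 ± 0.32 (SE, adjusted p = 0.949 in limma). Fh, fumarate hydratase, differed by 0.80 ± 0.37, with overlapping groups. The groups did not overlap in 3 genes with higher levels (Dlat, Pdha1 and Dlst) and in 3 with lower ones, which were Mdh2 (-0.49), Idh3a (-0.43) and Cs, citrate synthase (-0.40). That is 20.0% of the 15 each way, beside 4.39% of all named genes upward and 6.11% downward. Among bright genes the shares were 4.31% and 6.98%, and the list was not tested against them.

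In the list of coenzyme Q synthesis and other electron donors 6 of 17 were higher and 11 lower, with a median of -0.13. Coq8a, an atypical kinase needed for coenzyme Q synthesis, had 9.05, 9.48 and 9.90 with tea and 10.23, 10.54 and 10.13 in the controls. The groups did not overlap, and the difference was -0.82 ± 0.32 (SE, adjusted p = 0.949 in limma). Coq10b, which binds coenzyme Q, stood the other way by 1.01 ± 0.42, with 11.50, 11.13 and 9.89 against 9.87, 10.04 and 9.57, and overlapped through tea replicate 3. Of the carriers and uncoupling proteins 7 of 13 were higher. Ucp2, an inner membrane carrier, had 6.51, 6.77 and 7.27 with tea and 5.53, 6.43 and 6.34 in the controls, a difference of 0.75 ± 0.36 with groups that did not overlap. Vdac3, an outer membrane channel, differed by 0.45 ± 0.35.

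The import list was every gene with a symbol starting Tomm or Timm, so it holds Timmdc1, also counted above among the assembly factors. The mitochondrial ribosome had 13 of 24 higher and 11 lower with a median of 0.08, and mitochondrial import had 11 of 17 higher with a median of 0.17. Without control replicate 1 both medians were below 0, at -0.12 and -0.058. The cytosolic ribosome, another large set of genes with bright probes, had 42 of 69 lower, with a median of -0.09, or -0.15 without control replicate 1 and 0.04 without control replicate 3. The medians of the 54 in the same order were -0.12, -0.14 and -0.044, so the signs were opposite without control replicate 3. The difference between the lists was not tested. Rpl36, of the large ribosomal subunit, differed by -0.84 ± 0.37. Of the mitochondrial ribosome, Mrpl37 and Mrps24 differed by -0.65 ± 0.33 and -0.72 ± 0.38. Of the import machinery, Tomm20l differed by -1.06 ± 0.48 and Tomm22 by 0.87 ± 0.62, or -0.48 and 0.05 without control replicate 1.

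Markers of other cells were read for the whole lists. The hepatocyte markers had 6 of 12 higher and 6 lower with a median of -0.0040, and their summed intensity was 323611 to 352093 with tea and 327081 to 359546 in the controls. Of the Kupffer cell and macrophage markers 4 of 9 were higher and 5 lower, with a summed intensity of 2713 to 5576 with tea and 3651 to 6341 in the controls. Of the erythroid markers 1 of 3 was higher, with sums of 1220 to 2593 and 1780 to 2593. Of the lymphocyte markers 5 of 6 were higher, with sums of 874 to 1592 with tea and 618 to 778 in the controls, which did not overlap. Gzmb, granzyme B, led these, with 8.95, 9.75 and 10.21 with tea and 8.26, 8.43 and 8.35 in the controls, and without it the sums were 370 to 408 with tea and 302 to 432 in the controls, which overlapped. Of the T cell genes, Cd3d, Cd8a and Cd3g had mean levels of 6.96, 6.31 and 4.98, where the random control probe lay between 5.05 and 5.40. The part of these cells in the values of the 54 genes was not tested.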

How the data were processed

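Per the labels' protocols, liver RNA carried a Cy3 label and NimbleGen procedures were followed, with 6 profiles in all. The deposited values are intensities, unlogged, with 1 value per probe in every array. Probe here means 1 row of those values, identified by a transcript, and whether it combines several array features was not checked. The submitters' processing notes name RMA; its settings were not given in the sources used here. Such processing usually makes arrays alike in distribution, which would hide a shift of all genes, though the upper percentiles still differed here. Here log2 was taken with no further scaling and no filter, and 26419 probes were tested after 1 random control row was left out.

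Probes were named through RefSeq transcripts on GRCr8, giving 1 symbol to 9747 probes and none to 16672, and the probe with the highest mean stood for each of 9627 genes. For 27 of the 54 genes the reference lists pseudogenes, whose sequences may share signal with the probes. The two-sided test was that of limma (version 3.58.1, under R 4.3.3, functions lmFit and eBayes), and p-values were adjusted over all probes by Benjamini-Hochberg, with calls under 0.05. Differences are tea minus control. The procedure was tested on simulated data with known changes. Those had independent normal noise, the same SD for every probe and no array standing apart, unlike the data here.

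The members and lists were chosen with earlier results of these data known. By the rule for named genes, text values cover, for each complex, the 3 smallest p, the highest and lowest mean, genes whose groups do not overlap, tissue isoforms, genes with several probes, and the 2 smallest p of each list. Other genes were named after their values were seen. Alternatives were repeated quantile normalization, median centring, array weights, the replicate block, leaving dim probes out, a robust eBayes with a trend, the mean of a gene's probes, an adjusted p under 0.1, and each array left out. Some genes that the rule names are counted in the totals and are not reported here.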

Additional observations from a re-analysis of the deposited data

How the results depend on the processing

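No setting brought any of the 54 genes past the correction, while the count over all probes was 27 with array weights, 0 with the replicate block, and 0 to 6 with 1 array left out, 6 being without control replicate 1. At an unadjusted p under 0.05 the lower genes numbered 2 with all arrays, 5 with array weights (Cox7a2, Uqcrc1, Atp5mg, Cox7b and Atp5f1e), 0 with the replicate block, and 0 to 9 with 1 array left out, 0 being without tea replicate 3 or control replicate 3. The higher genes by that rule numbered 0 with all arrays, 1 with array weights (Cox8c), and 0 to 2 with 1 array left out. Shares of all named genes at that p are given here only for all arrays and without control replicate 1. The counts under other settings have no background beside them, so they cannot be read as above or below it. For most groups of more than 1 gene, medians moved by less than the pooled SD of the group's mean level over tea and control arrays. Complex II (SD 0.16) was an exception, at 0.19 with all arrays, -0.027 with array weights and -0.031 to 0.43 with 1 array left out. Complex III (SD 0.34) was the other, at -0.57 to -0.14 with 1 array left out, -0.14 being without control replicate 3. That SD includes the spread of control replicates 1 and 3, so large moves can fall within it. Complex I went from -0.02 to -0.20 without control replicate 1, and complex V from -0.17 to 0.0033 without control replicate 3. No label says that the replicate numbers pair the arrays. Deviations from the group means correlated at -0.22, 0.013 and -0.25 for same-numbered arrays, and at -0.12 to 0.25 for the others. With 3 arrays a group these values cannot decide whether the numbers pair arrays. In this balanced design the block leaves each difference as it is. The direction of 31 of the 54 genes was kept with each array left out. It turned in the other 23, with these lowest and highest differences: Atp5f1a (-0.13 to 0.62), Atp5f1b (-0.29 to 0.0033), Atp5f1c (-0.30 to 0.38), Atp5f1e (-0.89 to 0.074), Atp5if1 (-0.36 to 0.21), Atp5mc1 (-0.34 to 0.17), Atp5mc2 (-0.72 to 0.27), Atp5mk (-0.89 to 0.26), Atp5pd (-0.10 to 0.59), Cox4i2 (-0.29 to 0.21), Cox8a (-0.11 to 0.099), Cox8b (-1.01 to 0.0495), Ndufa10 (-0.31 to 0.023), Ndufa11 (-0.21 to 0.30), Ndufa5 (-0.19 to 0.62), Ndufaf3 (-0.0036 to 0.13), Ndufaf4 (-0.032 to 0.26), Ndufs7 (-0.25 to 0.17), Ndufv1 (-0.14 to 0.61), Ndufv2 (-0.085 to 0.016), Ndufv3 (-0.021 to 0.92), Sdhd (-0.031 to 0.46), Uqcrfs1 (-0.07 to 1.44). Array weights turned the direction of Atp5f1a (-0.070), Atp5f1c (-0.19), Atp5mc1 (0.24), Cox4i2 (0.18), Cox8a (0.13), Ndufa11 (-0.0091) and Sdhc (-0.027), and quantile normalization that of Atp5pf (-0.012) and Ndufs7 (0.033). Only 3 arrays for each group, and no background signal beyond 1 random row, limit all values, those of dim genes such as Cox4i2 the most.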
